A study of Mus musculus with 10 samples.

Results

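The 9 genes described here mark the 2 kinds of capillary endothelial cell of the mouse lung. They were chosen by name from the 54532 genes of the deposited expression table, 4 as genes of aerocytes (Car4, Ednrb, Apln and Fibin) and 5 as genes of general capillary cells (Gpihbp1, Plvap, Aplnr, Cd93 and Ptprb). The samples were whole lungs of wild-type C57/BL6 pups, male or female, taken at postnatal day 14 (P14). The 5 lungs of the IncPBF group came from pups whose abdominal aorta had been punctured into the inferior vena cava at P7, a fistula that increases pulmonary blood flow, and the 5 lungs of the sham group from pups that had the same laparotomy without the puncture. The comparison addresses what increased flow does to a lung that is still forming alveoli. Each lung was a bulk RNA-sequencing library, so every value sums all cells of the tissue, and the assignment of a gene to a capillary type comes from background knowledge and could not be checked in these libraries.

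Aerocytes are large, thin capillary cells that lie against the alveolar epithelium and serve gas exchange. General capillary cells serve as progenitors in repair and regulate vascular tone. Apelin, the peptide made from Apln, acts on the apelin receptor, Aplnr, so the ligand and its receptor sit on different capillary cell types. In bulk lung, fewer cells of a type and less RNA per cell cannot be told apart.

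The RefSeq table of promoters held 4 of the 9 genes, all of them aerocyte genes. Of these 4 genes, 3 were called lower in the IncPBF group, beside 16.2% of all tested genes, and Fibin was not called. Each promoter runs 5′ to 3′ on the strand of its gene on GRCm38.p6. The stretch spans 250 bases before the RefSeq transcription start to 50 bases from it, and capitals mark the letters searched. For Car4, Ednrb and Fibin that start is not the 5′ end of the gene coordinates given below. The Ednrb stretch lies wholly inside those coordinates. Car4 lies at chr11:84957504-84957803 (plus strand), Ednrb at chr14:103843652-103843951 (minus), Apln at chrX:48034804-48035103 (minus) and Fibin at chr2:110362944-110363243 (minus).
Car4: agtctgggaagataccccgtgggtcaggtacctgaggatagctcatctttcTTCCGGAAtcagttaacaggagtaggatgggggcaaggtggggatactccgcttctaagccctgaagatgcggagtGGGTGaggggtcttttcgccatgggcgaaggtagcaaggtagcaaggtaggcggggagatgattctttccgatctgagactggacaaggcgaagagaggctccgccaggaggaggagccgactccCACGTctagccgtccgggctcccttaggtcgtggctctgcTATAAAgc
Ednrb: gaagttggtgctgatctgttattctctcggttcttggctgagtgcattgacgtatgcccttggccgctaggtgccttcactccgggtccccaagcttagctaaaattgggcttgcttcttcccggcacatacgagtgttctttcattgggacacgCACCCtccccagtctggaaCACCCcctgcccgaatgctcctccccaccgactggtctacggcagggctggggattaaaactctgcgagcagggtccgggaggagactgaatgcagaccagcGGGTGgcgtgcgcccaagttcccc
Apln: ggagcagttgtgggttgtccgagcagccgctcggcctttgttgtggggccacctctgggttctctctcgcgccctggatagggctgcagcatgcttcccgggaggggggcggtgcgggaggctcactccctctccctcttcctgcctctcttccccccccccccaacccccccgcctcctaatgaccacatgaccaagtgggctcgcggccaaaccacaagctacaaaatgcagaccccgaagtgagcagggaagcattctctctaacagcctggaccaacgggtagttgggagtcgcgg
Fibin: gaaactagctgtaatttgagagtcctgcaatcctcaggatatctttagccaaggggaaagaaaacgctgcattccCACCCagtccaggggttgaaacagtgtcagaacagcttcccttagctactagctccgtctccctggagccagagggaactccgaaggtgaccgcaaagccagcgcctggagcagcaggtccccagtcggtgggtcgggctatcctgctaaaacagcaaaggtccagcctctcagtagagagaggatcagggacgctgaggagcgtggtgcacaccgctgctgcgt
The letters searched on both strands were CCGGAA for ETS factors, CACCC for KLF factors, ACGTG for the hypoxia response element and TATAAA for the TATA box. The Car4 promoter held 2 overlapping ETS matches between -199 and -192, a KLF match, an ACGTG match and a TATAAA match that began 42 bases after the start. Ednrb held 3 KLF matches, Fibin held 1 and Apln held none of the letters. Of all 32851 promoters of the same length, 14.9% held the ETS letters, 57.5% the KLF letters, 19.6% ACGTG and 13.6% TATAAA. A match describes letters only.

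The libraries held 16103423 to 20318525 fragments on genes, and each of the 9 genes had at least 1629 fragments in every lung. Values are FPKM, fragments per kilobase of gene scaled to the size of the library, as the authors deposited them. Xist, the RNA of the inactive X chromosome, stood at 52.4 to 66.5 FPKM in IncPBF lungs 2 to 5 and at 0.0770 FPKM or less in IncPBF lung 1 and all 5 sham lungs, while the Y-linked Ddx3y was at 18.6 FPKM or more in those 6 lungs and at 0.0093 or less in the other 4. Sex and surgery were therefore nearly aligned, and the part of sex in the results below could be read only from IncPBF lung 1. A fit with Xist as a covariate rests on that same lung. Sham lung 3 stood apart in the aerocyte genes, as given below.

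Of the 9 genes, 7 were called lower in the IncPBF group and none was called higher by limma at an adjusted p under 0.05. Among all 15388 genes tested, 32.3% were called in either direction and 16.2% were called lower. In 4 of the 9, all general capillary genes, the highest IncPBF value was below the lowest sham value, which was the case for 11.2% of the genes tested. The falls ran from a log2 fold change of -0.24 for Apln to -0.83 for Ptprb, while the median of all tested genes was 0.01. Fibin and Aplnr were not called.

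**Figure D1:**
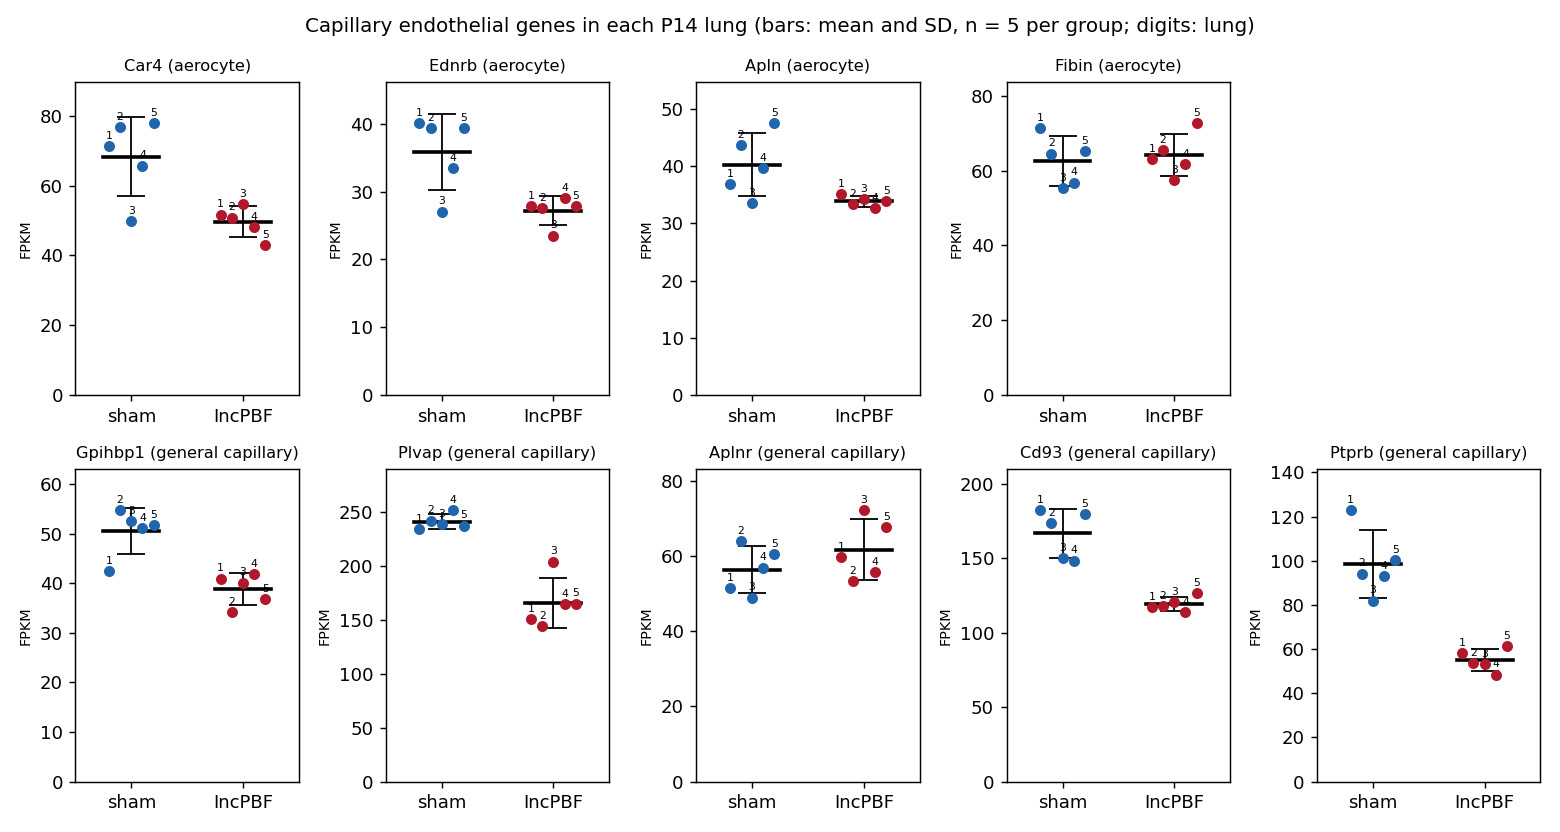
FPKM of each gene in the 5 sham lungs (blue) and the 5 IncPBF lungs (red), with the lung number beside each point and bars for the mean and SD. The groups do not overlap for Gpihbp1, Plvap, Cd93 and Ptprb, and sham lung 3 is the lowest sham point in all 4 aerocyte genes.

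Ptprb encodes VE-PTP, the endothelial phosphatase that acts on the receptor Tie2 and on VE-cadherin. It lies at chr10:116275523-116389535 and had the largest fall of the 9 genes. IncPBF lungs 1 to 5 held 58.1, 53.6, 53.1, 48.5 and 61.3 FPKM and sham lungs 1 to 5 held 123, 94.2, 82.0, 93.0 and 100.3 FPKM. The highest IncPBF lung stayed below the lowest sham lung, sham lung 3, and sham lung 1 was the highest of all. Means were 54.9 ± 4.95 against 98.5 ± 15.2 FPKM (SD, n = 5 each), 55.7% of the sham level. The log2 fold change was -0.83 ± 0.10 (SE, limma, adjusted p = 0.000175), and 2.68% of the tested genes fell by at least as much.

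Plvap encodes the protein of the diaphragms across endothelial fenestrae and caveolae, and lies at chr8:71497765-71511752. Its IncPBF values were 150, 144, 204, 165 and 165 FPKM and its sham values 234, 242, 239, 251.8 and 237 FPKM. The sham lungs lay closer together than for any other of the 9 genes, with a coefficient of variation of 2.85%, and IncPBF lung 3 lay nearest to them without reaching them. The means were 166 ± 23.3 and 241 ± 6.86 FPKM (SD, n = 5 each), a log2 fold change of -0.55 ± 0.09 (SE, limma, adjusted p = 0.000837).

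Cd93, a C-type lectin-like receptor of endothelial cells that binds multimerin 2, lies at chr2:148436640-148443563. IncPBF lungs held 117, 118, 121, 114 and 127 FPKM and sham lungs held 183, 173, 150, 148 and 180 FPKM. The IncPBF lungs were tightly grouped and the sham lungs split into lungs 1, 2 and 5 above lungs 3 and 4, with no overlap of the groups. The means were 119 ± 4.86 against 167 ± 16.4 FPKM (SD, n = 5 each), with a log2 fold change of -0.48 ± 0.07 (SE, limma, adjusted p = 0.000606).

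Gpihbp1, the protein that carries lipoprotein lipase to the capillary lumen, lies at chr15:75596628-75599481. The IncPBF lungs held 40.9, 34.1, 40.1, 41.8 and 36.8 FPKM and the sham lungs 42.5, 54.8, 52.5, 51.2 and 51.8 FPKM. The groups were separated by a narrow gap, between IncPBF lung 4 and sham lung 1. Means of 38.8 ± 3.21 and 50.6 ± 4.70 FPKM (SD, n = 5 each) gave a log2 fold change of -0.38 ± 0.08 (SE, limma, adjusted p = 0.00413).

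Aplnr, the apelin receptor, lies at chr2:85136225-85139923 and did not follow the other general capillary genes. Its IncPBF values were 59.7, 53.3, 72.3, 55.7 and 67.7 FPKM against 51.5, 64.1, 49.0, 57.0 and 60.5 FPKM in the sham lungs. The groups overlapped widely, and IncPBF lungs 3 and 5 were the highest of all. The log2 fold change was 0.13 ± 0.10 (SE, limma, adjusted p = 0.356), with a 95% confidence interval from -0.09 to 0.35.

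Of the aerocyte genes, Car4 encodes carbonic anhydrase 4, an enzyme of the outer cell membrane that takes part in the exchange of carbon dioxide. The gene lies at chr11:84957786-84966044. IncPBF lungs held 51.7, 50.8, 54.7, 48.0 and 43.0 FPKM and sham lungs held 71.2, 76.8, 49.9, 65.8 and 77.9 FPKM. Sham lung 3 lay within the IncPBF range and the other 4 sham lungs lay above it. Means of 49.6 ± 4.40 and 68.3 ± 11.4 FPKM (SD, n = 5 each) gave a log2 fold change of -0.45 ± 0.12 (SE, limma, adjusted p = 0.0134).

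Ednrb encodes the endothelin B receptor, which clears endothelin-1 and mediates release of nitric oxide in endothelium, and lies at chr14:103814625-103844402. Its IncPBF values were 27.9, 27.6, 23.5, 29.1 and 27.9 FPKM and its sham values 40.1, 39.3, 27.1, 33.5 and 39.4 FPKM. Sham lung 3 again fell inside the IncPBF range, and IncPBF lung 3 was the lowest of all. The means were 27.2 ± 2.14 and 35.9 ± 5.61 FPKM (SD, n = 5 each), and the log2 fold change was -0.39 ± 0.11 (SE, limma, adjusted p = 0.0185).

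Apln, at chrX:48025146-48034853, held 35.2, 33.4, 34.3, 32.7 and 33.9 FPKM in IncPBF lungs 1 to 5, against 36.9, 43.7, 33.6, 39.6 and 47.5 FPKM in sham lungs 1 to 5. The IncPBF lungs varied least of all the genes in that group, with a coefficient of variation of 2.75%, and sham lung 3 lay among them. The means were 33.9 ± 0.930 and 40.3 ± 5.51 FPKM (SD, n = 5 each), a log2 fold change of -0.24 ± 0.08 (SE). This call was the weakest of the 7 (limma, adjusted p = 0.0493), and it was lost in 14 of 23 alternatives. Over all 23, its adjusted p-values ran from 0.00953 to 0.649 (limma). When single lungs were left out, it was kept in 2 of 10 fits, those without sham lung 1 or sham lung 3.

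Fibin, which encodes a secreted factor first named for fin bud initiation, lies at chr2:110360917-110363183. Its IncPBF lungs held 63.0, 65.5, 57.4, 61.7 and 72.7 FPKM, and the other group held 71.4, 64.5, 55.3, 56.7 and 65.2 FPKM. The ranges overlapped almost entirely. The log2 fold change was 0.03 ± 0.08 (SE, limma, adjusted p = 0.784), with a 95% confidence interval from -0.15 to 0.22.

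**Figure D2:**
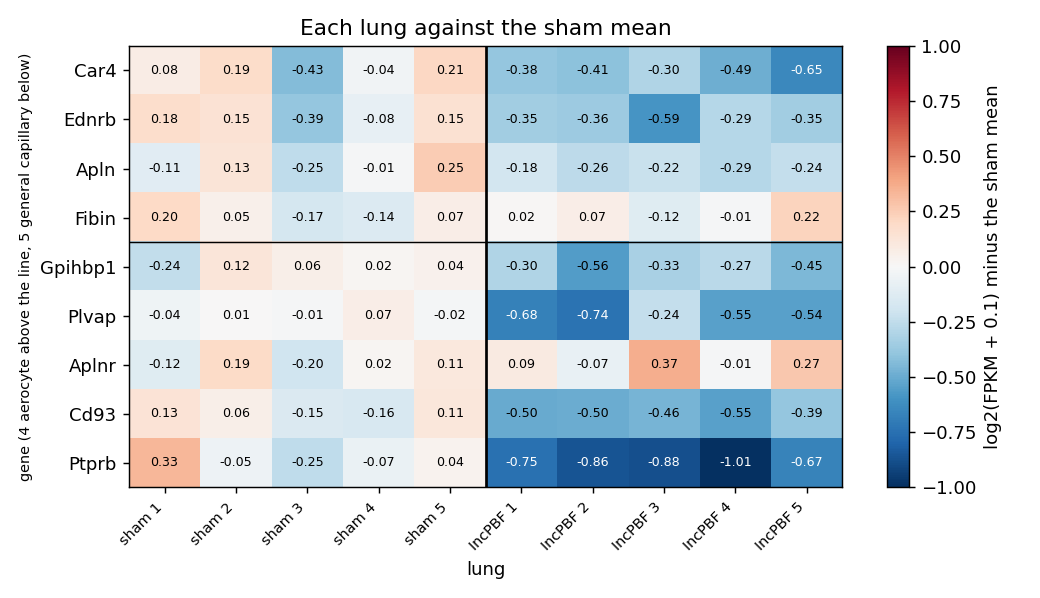
Log2(FPKM + 0.1) of each gene in each lung minus the mean of the 5 sham lungs, with the difference printed in each cell (blue lower, red higher). All 7 genes called lower are below 0 in all 5 IncPBF lungs, Fibin and Aplnr are below 0 in some and above in others, and the column of sham lung 3 is below 0 in all 4 aerocyte genes.

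Sham lung 3 was the lowest sham lung in all 4 aerocyte genes, and its mean over them was 0.31 below the sham mean on the log2 scale. It was also lowest in 5 of the 9 other aerocyte genes listed below, in 8 of 14 pan-endothelial genes and in 6 of 7 alveolar type 1 markers. Among general capillary genes, it was lowest in 2 of the 5 and in 4 of the 9 others listed below. Over all tested genes, it was the lowest sham lung in 23.2%. Its mean over the alveolar type 1 markers was 0.26 below the sham mean, and over the pan-endothelial genes 0.14 below. Without this lung, Car4, Ednrb and Apln had no overlap between the groups, and their adjusted p-values were 0.000596, 0.00109 and 0.00953 (limma). Sham lung 3 was singled out for its low values in these genes, so the separation and the smaller p-values follow from that choice. The part of this lung's tissue composition in its low values was not tested.

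IncPBF lung 1, the only IncPBF lung without Xist RNA, held less Ptprb, Plvap, Cd93 and Gpihbp1 than all 5 sham lungs, and less Car4, Ednrb and Apln than 4 of the 5. When only the lungs without Xist RNA were compared, 1 against 5, the 7 genes kept a negative log2 fold change, from -0.75 for Ptprb, -0.68 for Plvap and -0.50 for Cd93 to -0.18 for Apln. In that fit 0 of the 9 passed the adjusted threshold and 3 had an unadjusted p under 0.05 (limma), with 1.00% of all tested genes called. With log2 Xist as a covariate, 2 of the 9 genes were called, Plvap (adjusted p = 0.0308) and Ptprb (adjusted p = 0.0464), while 4.82% of all tested genes were called (limma). Both fits took the effect of surgery almost wholly from IncPBF lung 1, so they are not separate support. In the fit of lungs without Xist RNA, that lung was assumed to vary like the sham lungs.

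In the sham lungs the order of the 9 genes by FPKM, which is per length, was Plvap, Cd93, Ptprb, Car4, Fibin, Aplnr, Gpihbp1, Apln and Ednrb. Plvap lay above 99.3% of the tested genes and Ednrb above 91.2%. The ranges of neighbours did not overlap from Plvap down to Car4, and overlapped between all neighbours from Car4 down to Ednrb. In the IncPBF lungs Ptprb stood below Fibin and Aplnr, with overlapping ranges, and Plvap and Cd93 stayed at the top without overlap. The mean log2 of the 4 aerocyte genes minus that of the 5 general capillary genes ran from -1.04 to -0.74 in the IncPBF lungs and from -1.25 to -0.93 in the sham lungs, which overlap.

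Of 14 genes found in most endothelial cells, such as Pecam1 and Cdh5, 9 were called lower, 1 (Egfl7) was called higher, 4 were not called, and the median log2 fold change was -0.27, beside the 16.2% of all tested genes that were called lower. The 9 genes were also compared after the mean log2 value of these 14 genes in a lung had been subtracted from every gene of that lung. This moved the median of all tested genes to a log2 fold change of 0.26, with 4.98% of the tested genes called lower and 39.7% called higher. Changes in this fit are thus relative to the endothelial genes and not to the tissue.

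Relative to the endothelial list, 3 of the 9 genes were called lower, all general capillary genes. Ptprb had a log2 fold change of -0.59 ± 0.11 (SE, limma, adjusted p = 0.00169), Plvap of -0.31 ± 0.09 (adjusted p = 0.0193) and Cd93 of -0.24 ± 0.07 (adjusted p = 0.0198). Aplnr (0.37 ± 0.08, adjusted p = 0.00386) and Fibin (0.28 ± 0.10, adjusted p = 0.0336) were called higher, against a median of 0.26 over all tested genes. Car4 (-0.20, adjusted p = 0.0728), Ednrb (-0.14, adjusted p = 0.257), Gpihbp1 (-0.14, adjusted p = 0.198) and Apln (0.01, adjusted p = 0.952) were not called. When single lungs were left out, Plvap was not called without IncPBF lung 1 or 2 (adjusted p = 0.0517 and 0.0532), Cd93 was not called without IncPBF lung 4 (adjusted p = 0.0505), Fibin was called in 2 of 10 fits, and Car4 was called without sham lung 3 (-0.28, adjusted p = 0.00581). With Pecam1 and Cdh5 alone as the endothelial level, Plvap (-0.15) and Cd93 (-0.08) were no longer called, and with log2 Xist as a covariate 0 of the 9 genes were called, with 3 at an unadjusted p under 0.05 (limma).

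**Figure D3:**
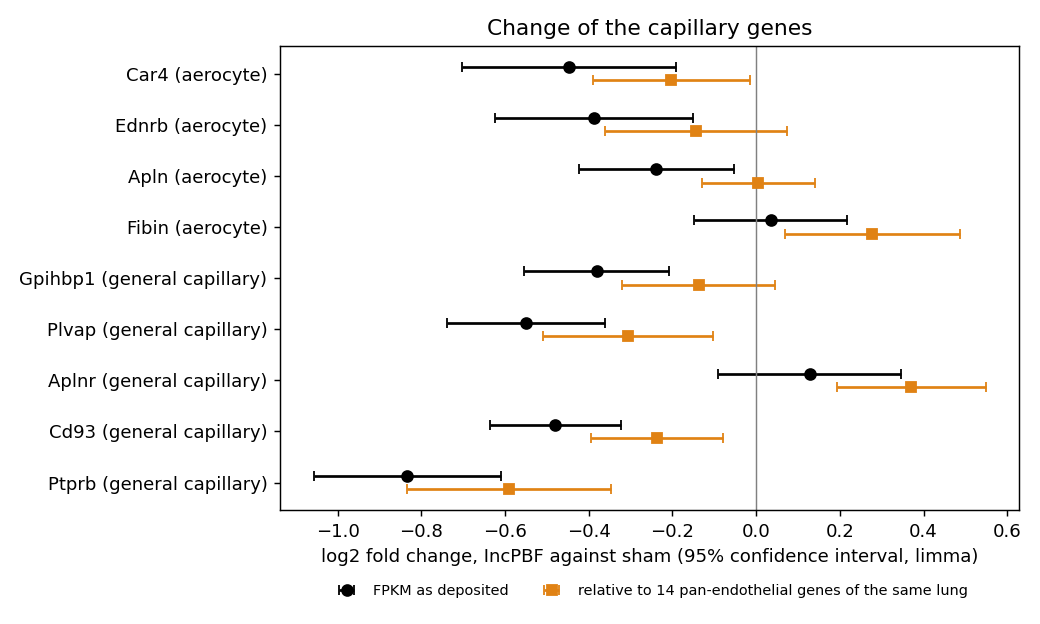
Log2 fold change of each gene, IncPBF against sham, with the 95% confidence interval from limma, on FPKM as deposited (circles) and relative to the mean of 14 pan-endothelial genes in the same lung (squares). Ptprb lies furthest left in both, at -0.83 and -0.59, and Aplnr and Fibin lie right of 0.

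Levels of ligand, receptor and binding partner were set against each other as a ratio of FPKM within a lung, which does not depend on the scaling of a library. The ratios were not recomputed after the correction for GC content and length described below. Altogether 6 ratios were computed, each tested by a two-sided exact permutation test over every way to divide the 10 lungs, whose smallest p is 0.00794. The 6 pairs were chosen with earlier results of these data known, which the adjustment over the 6 ratios does not cover. The share of other gene pairs whose ratio separates the groups was not computed. The ratio of Apln to Aplnr was 0.589, 0.626, 0.474, 0.587 and 0.5001 in IncPBF lungs 1 to 5 and 0.717, 0.682, 0.685, 0.695 and 0.786 in sham lungs 1 to 5. All 5 IncPBF lungs lay below all 5 sham lungs (0.555 ± 0.0649 against 0.713 ± 0.0433, exact permutation p = 0.00794, 0.0238 after Benjamini-Hochberg adjustment over the 6 ratios). Sham lung 3 did not stand apart in this ratio.

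The ratio of Ptprb to Tek, which encodes the receptor Tie2, was 0.813 ± 0.0524 against 1.05 ± 0.0578 in the sham group, without overlap (SD, n = 5 each, exact permutation p = 0.00794, adjusted 0.0238). Tek itself was lower, at 67.5 ± 3.04 against 93.8 ± 12.5 FPKM (log2 fold change -0.47, limma, adjusted p = 0.00223). In IncPBF lung 1, without Xist RNA, both ratios (0.589 and 0.861) lay below every sham lung.

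The ratio of Gpihbp1 to Lpl, the lipase it carries, was higher, at 3.497 ± 0.633 against 2.47 ± 0.456 with overlap (SD, n = 5 each, exact permutation p = 0.0238, adjusted 0.0357). Lpl fell more than Gpihbp1, from 20.8 ± 2.41 to 11.3 ± 1.28 FPKM (log2 fold change -0.88, limma, adjusted p = 8.67e-05). The ratio of Ednrb to Ednra, the endothelin A receptor of smooth muscle, was 0.813 ± 0.101 against 1.07 ± 0.166 (SD, n = 5 each, exact permutation p = 0.0238, adjusted 0.0357), with sham lung 3 inside the IncPBF range. Ednra stood at 33.6 ± 1.94 and 33.5 ± 1.75 FPKM. The ratios of Ednrb to Edn1 and of Cd93 to Mmrn2 did not pass (exact permutation p = 0.603 and 0.0873, n = 5 each).

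**Figure D4:**
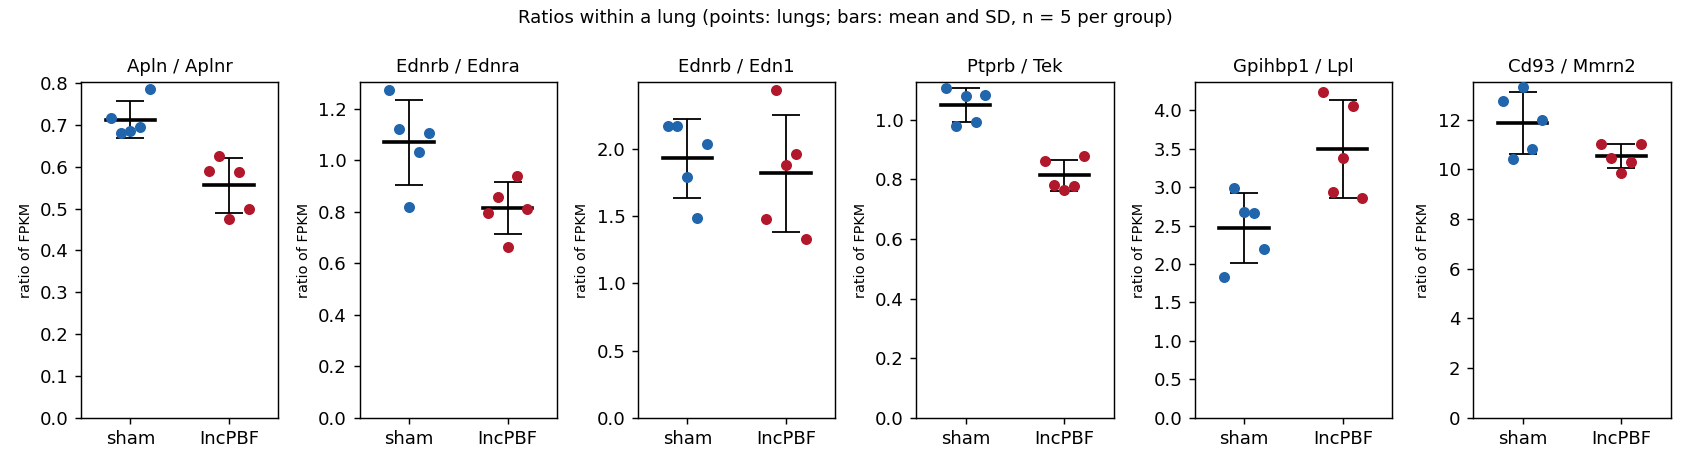
Ratio of the FPKM of 2 genes within each lung for 6 pairs, sham in blue and IncPBF in red, with bars for the mean and SD of 5 lungs. Apln to Aplnr and Ptprb to Tek do not overlap between the groups, while Ednrb to Edn1 spreads over the same range in both.

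Of the 13 tested genes of ligands, receptors and binding partners, 8 were called lower and 1 higher, with a median log2 fold change of -0.31. The share called lower over all tested genes was 16.2%. Beside Lpl and Tek, the angiopoietin Angpt1, which activates Tie2, fell from 29.7 ± 2.84 to 18.9 ± 1.69 FPKM (log2 fold change -0.65, limma, adjusted p = 0.000202). Angpt2, which can oppose Angpt1 at Tie2, was the gene called higher, from 6.57 ± 0.690 to 8.23 ± 1.19 FPKM with overlap (log2 fold change 0.31, limma, adjusted p = 0.0368). Ece1, which cleaves the endothelin precursor, was lower (-0.53, limma, adjusted p = 0.000174), as were Cav1 of caveolae (-0.49, adjusted p = 0.00160) and Vegfa (-0.31, adjusted p = 0.00165). Edn1 (-0.28, adjusted p = 0.220), Edn3 (-0.03, adjusted p = 0.766) and the VEGF receptor gene Kdr (-0.17, adjusted p = 0.311) were not called (limma). Apela, the other ligand of the apelin receptor, stood at 0.270 and 0.290 FPKM on average and was too low to be tested.

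Of 9 further genes of aerocytes, 6 were called lower and none higher, with a median log2 fold change of -0.42. Over all tested genes, 16.2% were called lower. Emp2 fell from 188 ± 34.2 to 122 ± 10.6 FPKM (log2 fold change -0.61, limma, adjusted p = 0.00319) and Prx from 70.6 ± 13.1 to 46.4 ± 1.41 FPKM (-0.58, adjusted p = 0.00259). Kitl, which encodes the ligand of the receptor Kit, was lower by -0.39 (limma, adjusted p = 0.00295), and the semaphorin and VEGF co-receptor Nrp1 by -0.48 (adjusted p = 0.0122). Chst1 (-0.42) and Rprml (-1.28, from 1.08 to 0.413 FPKM) were called lower too, while Tbx2 (-0.08), Kdr (-0.17) and Pmp22 (-0.18) were not. Emp2 is also expressed by alveolar type 1 cells, and all 7 alveolar type 1 markers were called lower, with a median of -0.50 and a summed level of 973 to 1050 FPKM against 1239 to 1638 FPKM. The part of these cells in the falls was not tested.

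Of 9 further genes of general capillary cells, 5 were called lower and none higher, with a median log2 fold change of -0.47. Again, 16.2% of all tested genes were called lower. Clec1a, a C-type lectin receptor, fell from 51.0 ± 7.72 to 27.5 ± 3.30 FPKM (log2 fold change -0.88, limma, adjusted p = 0.000233) and the receptor gene Glp1r from 41.7 ± 8.04 to 24.3 ± 2.53 FPKM (-0.76, adjusted p = 0.00131). Kit fell from 36.2 ± 3.27 to 24.6 ± 1.37 FPKM (-0.55, adjusted p = 0.000188), so the receptor and its ligand Kitl were both lower. Tek and Cd300lg (-0.63, adjusted p = 0.0235) were the other genes called. Sema3c (-0.31), Nostrin (-0.17), Cxcl12 (0.24) and Ntrk2 (0.27) were not called.

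**Figure D5:**
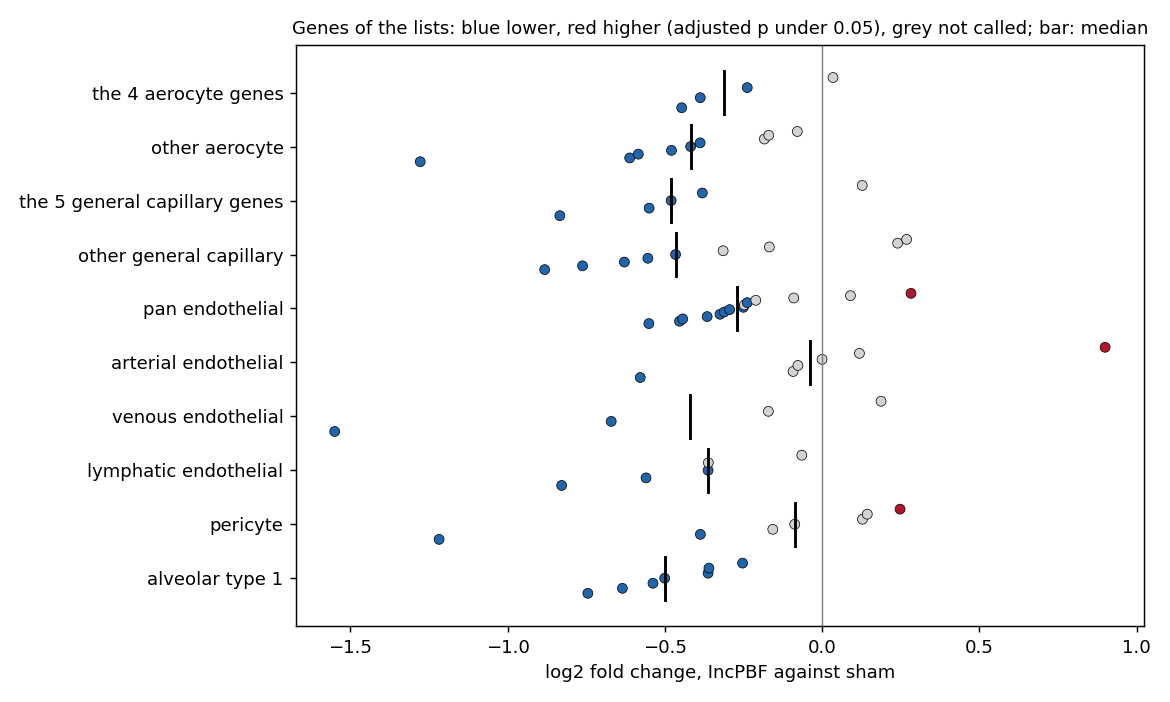
Log2 fold change of each tested gene, IncPBF against sham, by list, in blue where called lower, red where called higher and grey where not called, with a bar at the list's median. The medians of the further aerocyte (-0.42) and general capillary (-0.47) genes lie close to those of the venous (-0.42), lymphatic (-0.36) and alveolar type 1 (-0.50) lists, and the pan-endothelial (-0.27), pericyte (-0.09) and arterial (-0.04) medians lie nearer to 0.

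Genes of other vessels and cells were called in both directions. Among all tested genes, 32.3% were called in either direction and 16.2% were called lower, and several counts below lie near these shares. Of 6 tested arterial genes, Gja5 was called higher (log2 fold change 0.90, limma, adjusted p = 0.000956) and Hey1 lower (-0.58, adjusted p = 0.00259). Of 4 tested venous genes, Vwf (-0.67) and Slc6a2 (-1.55) were called lower, and of 5 lymphatic genes Flt4 (-0.56), Lyve1 (-0.83) and Pdpn (-0.36) were. The lymphatic genes Prox1 (-0.06, at 0.601 FPKM in IncPBF and 0.627 in sham lungs) and Mmrn1 (-0.36) were not called. Pdpn is also in the list of alveolar type 1 markers. Of 7 pericyte genes, 2 were lower and 1 higher, and of 7 smooth muscle and myofibroblast genes 4 were higher and 1 lower. Type 2 alveolar markers were lower in 4 of 7, and macrophage and monocyte markers lower in 1 and higher in 1 of 8. Fibroblast markers were lower in 1 and higher in 2 of 7, and Schwann and melanocyte markers higher in 1 of 3 tested. The lower fibroblast marker is the same gene as the lower smooth muscle and myofibroblast gene. Red cell genes were lower in 3 of 5, with a summed level of 251 to 1927 FPKM after the fistula and 1458 to 2442 FPKM after sham surgery. The part of cell composition in the values of the 9 genes was not tested.

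After the group means had been subtracted, the 9 genes formed 36 pairs over the 10 lungs. Pearson's r had a median of 0.62 in the 6 pairs of aerocyte genes (0.27 to 0.78), 0.26 in the 10 pairs of general capillary genes (-0.66 to 0.76) and 0.24 in the 20 mixed pairs (-0.59 to 0.83). These correlations describe 10 lungs that share libraries, depth and composition. Sham lung 3, the lowest sham lung in all 4 aerocyte genes, enters every pair of aerocyte genes. Its part in their higher median was not tested, and the r of arbitrary gene pairs was not computed. Of 8187 genes with a mean of at least 5 FPKM, the most alike by this measure were Elmo1 for Car4 (r = 0.95), Pacsin2 for Ednrb (0.93), Ppp1r9b for Apln (0.97), Heg1 for Fibin (0.98) and Bud23 for Gpihbp1 (0.95). For Plvap it was Cxxc1 (0.90), for Aplnr Slc15a4 (0.94), for Cd93 Zbtb34 (0.98) and for Ptprb Dpp8 (0.98). None of these genes is in the capillary or endothelial lists.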

How the data were processed

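Total RNA of 10 P14 lungs (5 IncPBF, 5 sham) was isolated with a column kit per the methods or Trizol per the labels, and NEBNext libraries were sequenced on a NovaSeq instrument. The authors deposited 1 table of FPKM, with no aligner role, counting software, test or annotation given in the sources used here. The submitters' processing notes list Bowtie 0.12.2 and the builds GRCm38, mm10 and hg38. Of the genes shared with GENCODE M21 on GRCm38, 98.3% had the same coordinates. The columns of the IncPBF lungs are abbreviated differently from their titles, so they were mapped to the group only. Nothing says that the lungs came from separate litters or batches, and p-values measure the spread between these lungs. FPKM times gene length were whole multiples of 1 fragment in 100% of the nonzero values with low fragment numbers (tolerance 0.1). The values of the 9 genes, at 1629 fragments or more, lay above the range checked.

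Genes with a mean of at least 0.5 FPKM entered limma 3.58.1 (trend, R 4.3.3) as log2(FPKM + 0.1), with Benjamini-Hochberg adjustment over all 15388 genes. Fold changes are on that log2 scale. Further fits changed the pseudocount, the filter, the scaling, the replicate block, the trend, the lungs and the endothelial level, or used voom on recovered fragments and an exact permutation test. A correction for GC content and length was added after seeing the data. Gtpbp3 overlaps Plvap on the opposite strand without shared exons. Ccl21a, on more than 1 row, was left out. The 9 genes, the lists and the ratios were chosen with earlier results of these data known. Named genes were the 9, the genes of the capillary and partner lists, up to 4 examples of other lists and the nearest genes by correlation. Egfl7, Hey1 and Pdpn were named after their values were seen.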

Additional observations from a re-analysis of the deposited data

Results flagged for a closer look

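Of the 18 sets of 5 lungs checked (9 genes in each group), 1 held a lung far from the others. Ednrb in IncPBF lung 3 was 23.5 FPKM, and its gap to the next lung was 0.731 of the group's range, above Dixon's critical value of 0.71. Chance gives about 1 such set in 20.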

How the results depend on the processing

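The count of 7 lower genes was 6 to 7 when each lung was left out in turn, 7 with voom on recovered fragments and 7 with exact permutation on unlogged FPKM (unadjusted). It fell to 2 with log2 Xist as a covariate, to 0 among lungs without Xist RNA (limma; 3 at an unadjusted p under 0.05) and to 1 with a fold minimum of 1.5. The count of 5 genes called relative to the endothelial list was 3 with Pecam1 and Cdh5 as the level, 0 with the Xist covariate, 0 among lungs without Xist RNA, and 3 to 5 with a lung left out, where it was 3 without IncPBF lung 1, 2 or 4. The 61 genes called in the other lists became 11 with the Xist covariate, 6 among lungs without Xist RNA and 27 with a fold minimum of 1.5, and 52 to 67 with a lung left out. Over all tested genes, 32.3% were called in the main fit and 4.82% with the Xist covariate. Relative to the endothelial list, 44.7% of all tested genes were called. With sex and surgery nearly aligned, these data cannot tell them apart.

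The deviations of lungs of equal number were hardly correlated (-0.07 to 0.09). These correlations cannot show whether lungs of equal number shared a litter or batch. With the replicate block, 6 genes were called, and 3 relative to the endothelial list.

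Uncalled values changed sign. Apln relative to the endothelial list was -0.00675 after quantile normalization, -0.0235 when GC content and length were corrected for and -0.0227 to 0.0283 with a lung left out. Fibin was -0.0427 after that correction and -0.0117 to 0.0837 with a lung left out. Gpihbp1 was at 0.0235 and Ednrb at 0.0169 relative to Pecam1 and Cdh5. Log2 fold changes correlated with gene length (Spearman's rho -0.21 across genes, which are not independent replicates), and Ptprb, the longest of the 9 at 13333 bases, was at -0.71 after the correction.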
